A study of Homo sapiens with 36 samples.

Results

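STC1, CXCR1, ADAM19 and TNFRSF6B are 4 of the 60725 Ensembl genes measured in this RNA-seq series of breast cell lines. They were chosen by their measured RNA level, because each had less RNA after siRNA depletion of any of 4 transcriptional regulators, the co-activators YAP (gene YAP1) and TAZ (gene WWTR1) and the DNA-binding factors STAT3 and JUNB, in tamoxifen-treated MCF-10A ER-Src cells. In those cells 39 genes were lower in all 4 knockdowns and 16 were higher (DESeq2, Benjamini-Hochberg adjusted p under 0.01 in each). The 4 genes are the first 4 of the 39 by mean log2 fold change over the 4 knockdowns, which was −3.42 for STC1, −3.06 for CXCR1, −2.93 for ADAM19 and −2.56 for TNFRSF6B. Just outside were RHOU, a small GTPase, at −2.12 and FOS, a subunit of AP-1, at −1.95. The tamoxifen values chose the genes and are therefore given as a description, without a test; tests are given for vehicle-treated cells and for MDA-MB-231 cells.

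MCF-10A ER-Src cells are immortal but not transformed mammary epithelial cells with an inducible oncogene, Src joined to the hormone-binding part of the estrogen receptor. Tamoxifen (TAM) activates this fusion and starts transformation, and ethanol (ETH) is the vehicle. For each of ETH and TAM there were 2 libraries with control siRNA (Ctrli) and 2 each with siRNA pools against YAP, TAZ, STAT3 or JUNB (YAPi, TAZi, STAT3i, JUNBi), which gives 20 libraries. MDA-MB-231, a triple-negative breast cancer line studied without Src induction, gave 16 libraries in separate sets. Set 1 held Ctrli, YAPi, TAZi, YAPi with TAZi (YAPi_TAZi) and TEADi (siRNAs against the TEAD factors), and set 2 held its own Ctrli with JUNBi and STAT3i, at 2 libraries a group.

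The treatment text of the labels, written alike for every library, names the Src inhibitor AZD0530 beside tamoxifen, and the sources used here do not say how long tamoxifen was given before the RNA was collected. Nor do they say whether replicates came from separate cultures, so that p-values measure only the spread between these samples, which may be technical. Each line is a single cell line, and fewer expressing cells and less RNA per cell cannot be told apart in bulk RNA.

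The ER-Src libraries held 6419720 to 19161700 counts and those of set 2 7290499 to 18076158. In set 1 the Ctrli libraries held 13456784 to 13534560 counts and the 8 knockdown libraries 1411304 to 2784605. Set 1 also differed in RNA content: 7 RNAs that lack a poly(A) tail took 8.71% to 11.8% of counts in its knockdown libraries and 0.00278% to 0.00407% in its Ctrli libraries, against 9.43% to 11.7% in ER-Src and 0.00363% to 0.0112% in set 2. Knockdown and library content therefore cannot be told apart in set 1 when a knockdown is set against its Ctrli. All 8 basal breast epithelial markers examined were at 1 TPM or more in every ER-Src library (TPM, a level scaled for transcript length and library total), and 7 of 8 leukocyte markers were under 1 TPM in every library of either line. The eighth, CD14, was at 3.01 to 7.51 TPM in ETH and 4.52 to 9.6 TPM in TAM libraries. Of the targeted genes, YAP1, WWTR1 and STAT3 were lower in their ETH knockdowns (log2 fold change −2.38, −1.86 and −1.88, DESeq2 adjusted p 1.9e-62, 4.3e-11 and 6.8e-23), whereas JUNB was not called in ETH JUNBi (−1.16, adjusted p = 0.064).

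The 4 genes encode secreted and cell-surface proteins with separate functions. STC1 is stanniocalcin 1, a secreted glycoprotein hormone that acts on calcium and phosphate handling and inhibits the protease PAPPA. CXCR1 is a G-protein-coupled receptor for the chemokine CXCL8 (interleukin 8), best known from neutrophils, where it is found together with its close relative CXCR2. ADAM19 is a membrane-anchored metalloprotease that can shed surface proteins such as neuregulin 1. TNFRSF6B, also called decoy receptor 3, is a soluble member of the TNF receptor family that binds FASLG, TNFSF14 and TNFSF15 and keeps them from their signalling receptors. YAP and TAZ do not bind DNA themselves and reach it through partners such as the TEAD factors, while STAT3 and the AP-1 subunit JUNB bind directly to short motifs.

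In hg38 (GENCODE v44 positions), CXCR1 (ENSG00000163464.7) lies on the minus strand at chr2:218162841-218166962, 25590 bases from CXCR2. ADAM19 (ENSG00000135074.15) lies on the minus strand at chr5:157395534-157575775, and TNFRSF6B (ENSG00000243509.4) on the plus strand at chr20:63696652-63698684. RefSeq promoter sequence (GRCh38.p14) was matched for 3 of the 4, and the 250 bases before each transcription start are shown because the siRNA targets act at DNA. Capitals were to mark matches on either strand to TGANTCA (AP-1), GGAATG (TEAD) or TTCNNNGAA (STAT).
CXCR1, chr2:218166963-218167212, minus strand: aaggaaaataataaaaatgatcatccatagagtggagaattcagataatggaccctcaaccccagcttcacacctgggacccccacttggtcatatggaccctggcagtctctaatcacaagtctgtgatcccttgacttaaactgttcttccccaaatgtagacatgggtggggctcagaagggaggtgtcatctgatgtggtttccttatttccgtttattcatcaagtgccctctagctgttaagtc
ADAM19, chr5:157575776-157576025, minus strand: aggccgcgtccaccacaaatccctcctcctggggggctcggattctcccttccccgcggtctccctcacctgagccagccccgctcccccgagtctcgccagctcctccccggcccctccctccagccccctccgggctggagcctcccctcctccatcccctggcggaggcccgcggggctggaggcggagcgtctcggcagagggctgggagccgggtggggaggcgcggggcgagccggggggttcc
TNFRSF6B, chr20:63696402-63696651, plus strand: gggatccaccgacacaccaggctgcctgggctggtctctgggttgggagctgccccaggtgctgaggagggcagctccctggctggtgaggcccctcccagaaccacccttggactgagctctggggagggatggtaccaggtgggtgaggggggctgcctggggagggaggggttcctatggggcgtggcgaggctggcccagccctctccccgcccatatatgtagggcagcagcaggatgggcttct
None of the 3 motifs had a match in these windows, and of the 35116 RefSeq promoter windows of the same length, the AP-1 motif was found in 6.57%, the TEAD motif in 11.9% and the STAT motif in 6.57%. The windows differed in composition, with 45.2% G and C and 1 CG dinucleotide for CXCR1, 68.0% and 4 for TNFRSF6B, and 76.4% and 21 for ADAM19, against a median of 58.0% over all windows.

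In control-siRNA cells all 4 genes had more RNA with TAM than with ETH, and their starting levels differed widely. STC1 was at 0.17 and 0.17 TPM in the 2 ETH Ctrli libraries and at 52.04 and 37.31 TPM in the 2 TAM Ctrli libraries. CXCR1 went from 0.21 and 0.1 TPM to 4.46 and 4.01 TPM, and ADAM19 from 0.11 and 0.28 TPM to 3.52 and 2.64 TPM. TNFRSF6B was already at 30.27 and 36.56 TPM in ETH and reached 395.65 and 523.43 TPM in TAM. The groups did not overlap for any of the 4, and the share of all genes with separate groups was not counted. The log2 fold change of TAM over ETH was 8.60 for STC1, 4.94 for CXCR1, 4.54 for ADAM19 and 3.96 for TNFRSF6B, given as a description since the same TAM Ctrli libraries entered the rule. In the same gene order the contrast was 4.78, 2.58, 1.93 and 0.65 with STAT3 siRNA and 5.94, 4.04, 2.475 and 3.47 with YAP siRNA. It was 6.79, 5.97, 3.33 and 3.39 with TAZ siRNA and 5.61, 7.62, 4.02 and 3.27 with JUNB siRNA. CXCR1 was thus above its control value with TAZ and JUNB siRNA, where each ETH library held 0 to 2 counts of it.

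**Figure D1:**
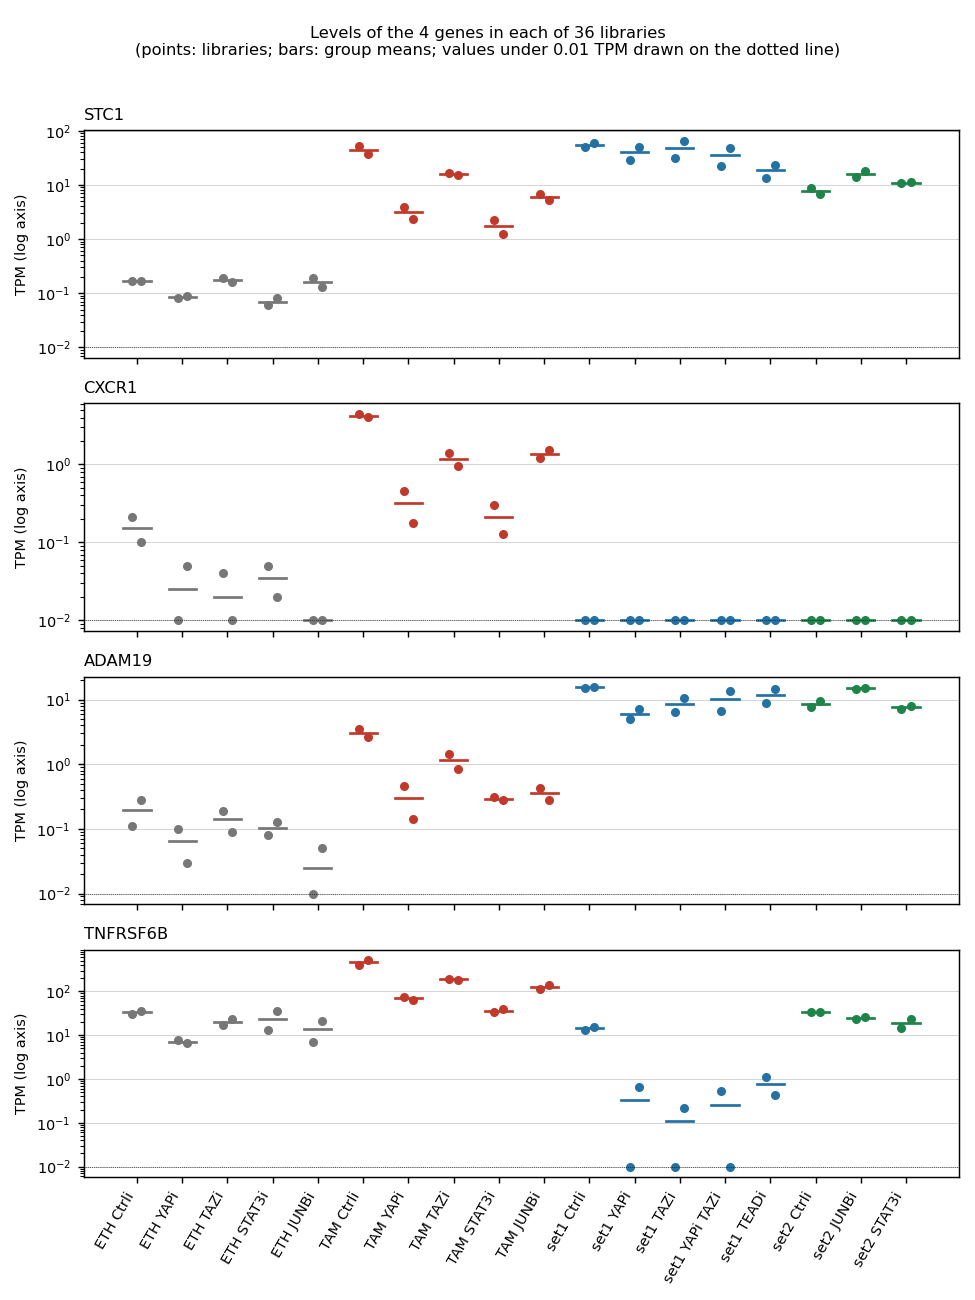
TPM on a log axis for STC1, CXCR1, ADAM19 and TNFRSF6B in each of the 36 libraries, with a point per library and a bar at the mean of the 2 libraries of a group, values under 0.01 TPM being drawn on the dotted line. TAM Ctrli was the highest ER-Src group for all 4 genes, and CXCR1 had 0 counts in all 16 MDA-MB-231 libraries.

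STC1 (ENSG00000159167.11, minus strand of hg38 chr8:23841929-23854806), the secreted hormone, had its largest fall with STAT3 siRNA. In TAM it was at 2.29 and 1.22 TPM in STAT3i, 3.93 and 2.39 TPM in YAPi, 6.7 and 5.21 TPM in JUNBi and 16.3 and 14.95 TPM in TAZi, against 52.04 and 37.31 TPM in Ctrli. No neighbouring groups in this order overlapped, from Ctrli down through TAZi, JUNBi, YAPi and STAT3i, and even STAT3i stayed above the ETH libraries, which ranged from 0.06 to 0.19 TPM. The log2 fold changes against Ctrli were −5.05 ± 0.41 (SE) for STAT3i, −3.81 ± 0.17 for YAPi, −3.18 ± 0.14 for JUNBi and −1.65 ± 0.13 for TAZi. In normalized counts 3.02% of the Ctrli mean was left in STAT3i and 32.0% in TAZi.

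CXCR1, the chemokine receptor, was left at 0.3 and 0.13 TPM in TAM STAT3i and 0.46 and 0.18 TPM in TAM YAPi, which overlapped each other. It was at 1.39 and 0.95 TPM in TAZi and 1.22 and 1.52 TPM in JUNBi, which overlapped as well, and all 8 knockdown libraries were below the 4.01 TPM of the lower Ctrli library. The STAT3i libraries also overlapped ETH Ctrli (0.21 and 0.1 TPM). The log2 fold changes were −4.56 ± 0.40 with STAT3 siRNA, −3.85 ± 0.38 with YAP siRNA, −2.01 ± 0.30 with TAZ siRNA and −1.81 ± 0.30 with JUNB siRNA. After JUNB siRNA, 22.3% and 34.6% of the Ctrli mean was left of CXCR1, a mean of 28.5%, which overlapped TNFRSF6B at 18.9% and 28.8%. The means were 11.02% for STC1, 10.7% for ADAM19 and 23.9% for TNFRSF6B.

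ADAM19, the metalloprotease, separated into high, middle and low groups in TAM. Ctrli was at 3.52 and 2.64 TPM and TAZi at 1.46 and 0.84 TPM. The other knockdowns lay together, with 0.43 and 0.28 TPM in JUNBi, 0.46 and 0.14 TPM in YAPi and 0.31 and 0.28 TPM in STAT3i, and neighbouring groups overlapped down to ETH Ctrli at 0.11 and 0.28 TPM. The log2 fold changes were −3.65 ± 0.30 in STAT3i, −3.31 ± 0.34 in YAPi, −3.23 ± 0.30 in JUNBi and −1.54 ± 0.28 in TAZi. These rest on 41 to 165 expected counts per knockdown library against 397 and 184 in Ctrli.

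TNFRSF6B, the decoy receptor, had the highest level of the 4 genes per transcript length in every ER-Src library. In TAM it was at 195.1 and 185.2 TPM in TAZi, 113.49 and 137.7 TPM in JUNBi, 76.04 and 63.72 TPM in YAPi and 33.09 and 38.88 TPM in STAT3i, and no neighbouring groups overlapped from Ctrli to STAT3i. STAT3i overlapped ETH Ctrli at 30.27 and 36.56 TPM. The log2 fold changes were −3.99 ± 0.15 in STAT3i, −2.75 ± 0.15 in YAPi, −2.07 ± 0.39 in JUNBi and −1.42 ± 0.26 in TAZi.

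**Figure D2:**
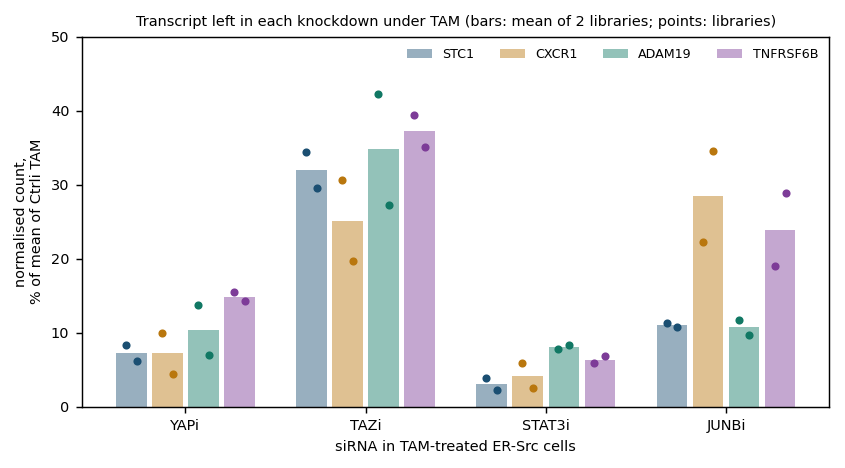
Normalized count left in each TAM knockdown library as a percentage of the TAM Ctrli mean, with a point per library and a bar at the mean of 2, for the 4 genes. STAT3i left 3.02% to 8.03% of the Ctrli mean and TAZi 25.1% to 37.3%, as group means.

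By group means the 4 genes shared this pattern of sizes in TAM: STAT3i left the least RNA for each, and TAZi or, for CXCR1, JUNBi left the most. For CXCR1 and ADAM19 the STAT3i libraries overlapped those of YAPi, and for CXCR1 TAZi overlapped JUNBi. All 4 genes were called lower in each knockdown because the rule required it. Some of these calls depended on the processing. In TAZi the ADAM19 call was lost by edgeR and with all ER-Src groups in 1 fit, and the TNFRSF6B call in that fit. Without single libraries the JUNBi log2 fold change was −2.16 to −1.53 for CXCR1 and −2.40 to −1.77 for TNFRSF6B. Of all genes tested, 5.54% were called lower after YAP depletion, 1.74% after TAZ, 4.8% after STAT3 and 3.95% after JUNB depletion. The median log2 fold change of the 4 genes was −3.56 with YAP siRNA, −1.59 with TAZ siRNA, −4.27 with STAT3 siRNA and −2.62 with JUNB siRNA, and that of all genes tested lay between −0.004 and 0.025. JUNB itself was at 54.35 and 71.05 TPM in TAM Ctrli, 16.35 and 18.86 TPM in JUNBi and 14.44 and 14.88 TPM in STAT3i, so JUNB RNA was low in both knockdowns, and its part in the STAT3i values was not tested.

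In vehicle-treated cells, the question was whether the same siRNAs lower the 4 genes without Src induction, and only TNFRSF6B was expressed well enough for a firm comparison. In ETH, STC1 had 4 to 15 expected counts per library, ADAM19 0 to 21 and CXCR1 0 to 13.17, whereas TNFRSF6B had 177.36 to 1037.41. TNFRSF6B fell in YAPi, to 7.61 and 6.46 TPM from 30.27 and 36.56 TPM in Ctrli, and in TAZi, to 16.85 and 23.63 TPM. Both pairs lay wholly below Ctrli. The log2 fold change was −2.29 ± 0.20 in YAPi (DESeq2 adjusted p = 4.8e-28, edgeR adjusted p = 0.00023) and −0.88 ± 0.21 in TAZi (DESeq2 adjusted p = 0.00091, edgeR adjusted p = 0.024). The TAZi call was lost without Ctrli replicate 2 (adjusted p = 0.4) and without TAZi replicate 1 (0.11). Against each other, YAPi was lower than TAZi by a log2 fold change of −1.41 ± 0.23 (DESeq2 adjusted p = 1.8e-07, edgeR adjusted p = 0.0067), a call lost without TAZi replicate 2 (0.036), where 4.16% of all genes tested were called in either direction.

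The STAT3 and JUNB siRNAs gave TNFRSF6B replicates that stood apart in ETH. STAT3i had 12.89 and 34.75 TPM, of which the second lies within the Ctrli range, and JUNBi had 6.89 and 20.71 TPM, both below Ctrli. The log2 fold change was −0.71 ± 0.68 in STAT3i (DESeq2 adjusted p = 1.0) and −1.42 ± 0.86 in JUNBi (adjusted p = 0.53). Leaving out single libraries gave log2 fold changes of −1.52 to −0.188 in STAT3i and −2.63 to −0.765 in JUNBi. The lowest value in each was without replicate 2 of the knockdown, which leaves 1 knockdown library. JUNB RNA followed the same split, at 7.97 and 16.53 TPM in STAT3i and 3.9 and 8.55 TPM in JUNBi, and its part was not tested. Without pairing, the difference between STAT3i and JUNBi did not pass the test (log2 fold change 0.72, DESeq2 adjusted p = 0.94). Of all genes, 1.7% were called in either direction there. Only 2 of the 4 genes had an adjusted p, and 0 of these were called. At an unadjusted p under 0.05 there were 0 of 4, and edgeR, which gave a value only for TNFRSF6B, called 0. With the replicate number as a block TNFRSF6B was called in this contrast (0.84, DESeq2 adjusted p = 0.0068). Same-numbered deviations correlated at 0.65 there, and no label says that a number marks a batch.

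For the 3 genes with few counts in ETH, exact 95% intervals on the ratio of summed counts cover counting error only. CXCR1 had 20 counts over both Ctrli libraries and 1, 2, 3 and 5 in JUNBi, TAZi, YAPi and STAT3i. Scaled for depth these were 4.28% (interval 0.103% to 26.7%), 12.1% (1.37% to 49.8%), 10.8% (2.06% to 36.5%) and 21.6% (6.34% to 59.4%) of Ctrli, so each interval lay below 100%. ADAM19 was at 14.7% of Ctrli in JUNBi (5.04% to 35.2%), 45.4% in YAPi (25.4% to 79.6%), 46.9% in STAT3i (25.4% to 84.3%) and 79.5% in TAZi (44.9% to 138%), the last with an interval that includes 100%. STC1 was at 43.97% in YAPi (20.9% to 89.2%) and 41.4% in STAT3i (18.2% to 88.3%), and at 85.5% in JUNBi (45.8% to 160%) and 110% in TAZi (58.2% to 209%), where the intervals include 100%. None of these 3 genes was called, and ADAM19 in JUNBi had a log2 fold change of −2.75 with a DESeq2 adjusted p of 0.36. In ETH, 1 of the 3 genes with an adjusted p was called lower in YAPi, where 6.36% of all genes were, and 1 of 1 in TAZi, where 2.78% were. In STAT3i 0 of 4 were called lower against a background of 0.163%, with 0 at an unadjusted p under 0.05 and 0 by edgeR, and in JUNBi 0 of 3 against 1.59%, with 2 at an unadjusted p under 0.05 and 0 by edgeR. The estimate was below 0 for all 4 genes in YAPi, STAT3i and JUNBi and for 3 of 4 in TAZi. The median over all genes tested lay between −0.013 and 0.017. All 4 comparisons use the same 2 Ctrli libraries, so these estimates and the intervals above are not independent between siRNAs.

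TNFRSF6B shares all of its 1140 exonic bases with the readthrough gene RTEL1-TNFRSF6B, so the split of reads between them is an estimate. The percentage of their joint expected count assigned to TNFRSF6B was 48.2% to 70.3% in ETH, 75.3% to 97.6% in TAM, 17.3% to 25.9% in set 1 Ctrli, 0% to 13.0% in the set 1 knockdowns and 38.8% to 77.6% in set 2. In TAM the readthrough gene was at 2.7 and 2.68 TPM with control siRNA and 2.32 and 2.76 TPM with STAT3 siRNA, overlapping, while TNFRSF6B lost most of its RNA. It was at 1.6 and 1.06 TPM with YAP siRNA and 2.19 and 1.78 TPM with TAZ siRNA, both below control, and 2.7 and 1.94 TPM with JUNB siRNA. Its log2 fold changes were −1.06, −0.60, −0.44 and −0.47 for the YAP, TAZ, STAT3 and JUNB siRNAs, each nearer to 0 than that of TNFRSF6B. In ETH it was called lower in YAPi (log2 fold change −1.75, DESeq2 adjusted p = 8.3e-15) and TAZi (−1.14, adjusted p = 3.3e-05). With the 2 genes summed, the ETH log2 fold change was −2.09 in YAPi and −0.96 in TAZi (adjusted p = 9.7e-06).

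**Figure D3:**
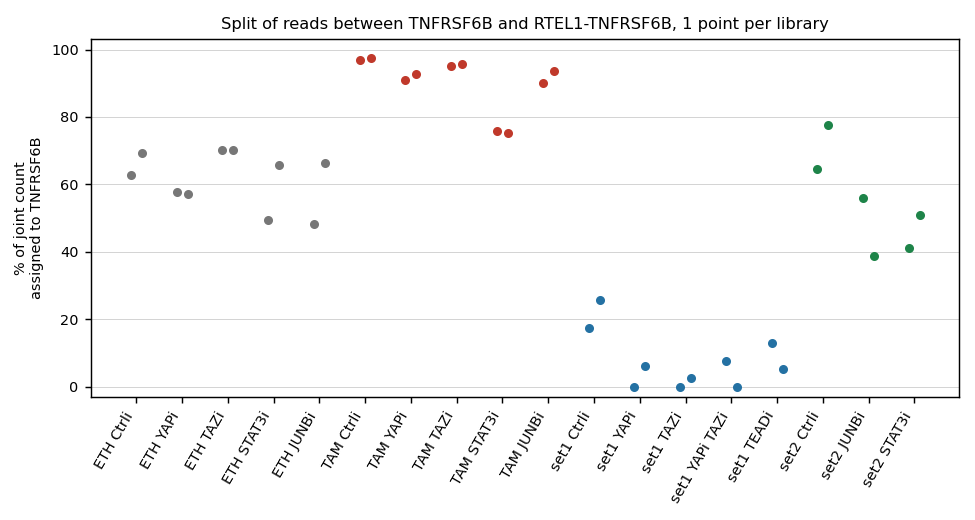
Percentage of the joint expected count of TNFRSF6B and RTEL1-TNFRSF6B that was assigned to TNFRSF6B, with a point per library and groups on the horizontal axis. TAM libraries ranged from 75.3% to 97.6% and the set 1 knockdown libraries from 0% to 13.0%.

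In MDA-MB-231 cells, 3 of the 4 genes were expressed. CXCR1 had 0 counts in all 16 libraries, where 3 counts would have been 0.0675 to 0.446 TPM, and its relative CXCR2 was listed at 0 as well. In the 2 Ctrli pairs STC1 was at 49.92 and 58.54 TPM in set 1 and 8.6 and 6.87 TPM in set 2. ADAM19 was at 15.24 and 15.75 TPM in set 1 and 7.75 and 9.38 TPM in set 2, against 3.52 and 2.64 TPM in TAM-treated ER-Src Ctrli. The order of set 2 and ER-Src turned when TPM was rescaled over protein-coding genes, which gave ADAM19 levels of 8.23 and 9.96 in set 2 and 14.9 and 11.6 in TAM Ctrli. TNFRSF6B was at 13.27 and 15.49 TPM in set 1 and 33.16 and 33.38 TPM in set 2, below TAM-treated ER-Src Ctrli on either scale. The Ctrli pairs of the 2 sets did not overlap for any of the 3 genes, and the share of all genes for which this held was not counted. Levels were set side by side across sets without a test.

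In set 1 the direction against Ctrli turned with the scale. STC1 was at 29.01 and 51.2 TPM in YAPi, 31.01 and 65.46 TPM in TAZi, 22.86 and 48.69 TPM in YAPi_TAZi and 13.69 and 23.69 TPM in TEADi, each mean below the Ctrli mean of 54.2 TPM. By DESeq2 on counts STC1 was instead called higher in YAPi (log2 fold change 0.87 ± 0.15, adjusted p = 9.9e-08), TAZi (1.11 ± 0.14, 6.7e-14) and YAPi_TAZi (0.61 ± 0.15, 0.00028). In TEADi it was −0.22 ± 0.18 (adjusted p = 0.37). The YAPi call was lost without Ctrli replicate 1 (adjusted p = 0.018) and the YAPi_TAZi call without any single library (0.012 to 0.24). TPM rescaled over protein-coding genes alone gave means of 57.4 in Ctrli and 136, 165, 115 and 65.5 in YAPi, TAZi, YAPi_TAZi and TEADi. The second knockdown replicate was above the first in all 4 groups on the TPM scale.

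ADAM19 turned in the same way. Its means were 15.5 TPM in Ctrli and 6.05, 8.46, 10.1 and 11.8 TPM in YAPi, TAZi, YAPi_TAZi and TEADi, all lower. The log2 fold change on counts was 0.18 ± 0.23 (adjusted p = 0.61), 0.81 ± 0.15 (5e-07), 0.68 ± 0.16 (5.6e-05) and 1.27 ± 0.17 (2.9e-12) by DESeq2. The call in TAZi was lost without either Ctrli replicate (adjusted p = 0.081 and 0.072), and that in YAPi_TAZi without either Ctrli replicate or YAPi_TAZi replicate 2 (0.23 to 0.28). With the Ctrli libraries of both sets as the reference, the 3 calls for STC1 and those for ADAM19 in TAZi and YAPi_TAZi were lost, at adjusted p-values of 0.035 to 0.13. With the other set 1 knockdowns as the reference, none of these 5 calls was kept, ADAM19 in TEADi was at 0.69 (adjusted p = 0.11) and STC1 in TEADi was called lower, at −1.09 (1.1e-05).

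**Figure D4:**
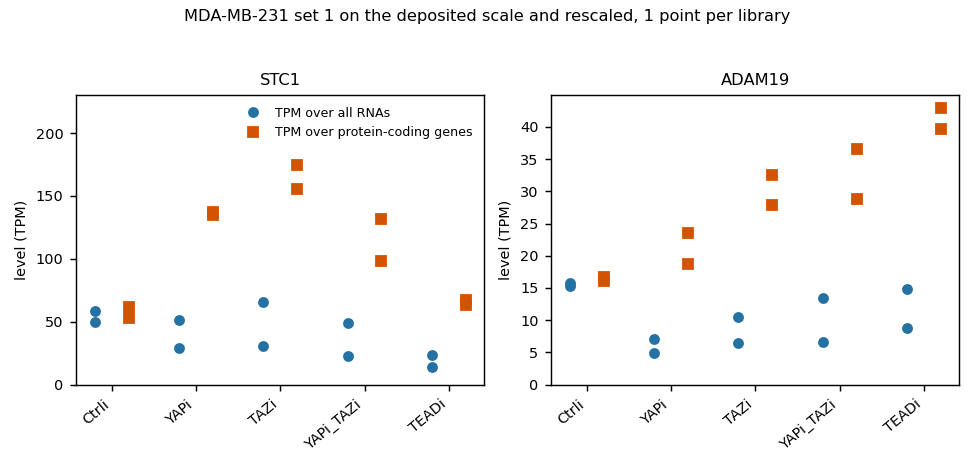
STC1 and ADAM19 in MDA-MB-231 set 1 as TPM over all genes and as TPM rescaled over protein-coding genes, with a point per library. The mean of STC1 in YAPi was 40.1 TPM against 54.2 TPM in Ctrli on the first scale and 136 against 57.4 on the second.

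TNFRSF6B was near 0 in the set 1 knockdowns. It was at 0 and 0.65 TPM in YAPi, 0 and 0.22 TPM in TAZi, 0.52 and 0 TPM in YAPi_TAZi and 1.12 and 0.42 TPM in TEADi, against 13.27 and 15.49 TPM in Ctrli. These are 2, 1, 2 and 6 counts over both libraries against 278 in Ctrli, or 5.07% (95% interval 0.611% to 18.5%), 2.36% (0.0595% to 13.3%), 6.17% (0.743% to 22.5%) and 17% (6.19% to 37.5%) of Ctrli after scaling for depth. DESeq2 called it lower in YAPi, TAZi and YAPi_TAZi (adjusted p = 0.0021, 0.00058 and 0.00073) and not in TEADi (0.019). The YAPi call was lost without any single library (adjusted p = 0.011 to 0.12), and the others without either Ctrli replicate, TAZi replicate 2 or YAPi_TAZi replicate 2 (0.011 to 0.16). Summed with RTEL1-TNFRSF6B, the log2 fold change was −1.08 (adjusted p = 0.0071), −1.08 (0.085), −1.59 (2.4e-08) and −1.40 (0.0012), so the sum fell less than TNFRSF6B did alone. Of the 3 expressed genes, 2, 3, 3 and 1 were called in YAPi, TAZi, YAPi_TAZi and TEADi, where 24.1%, 32.3%, 35.5% and 28.1% of all genes were called in either direction.

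The set 1 knockdowns can be set against each other without the Ctrli libraries. STC1 was lower in TEADi than in YAPi_TAZi (log2 fold change −0.82 ± 0.19, DESeq2 adjusted p = 0.00045, edgeR adjusted p = 0.015), the 1 call among 2 genes with an adjusted p, where 4.46% of all genes were called. That call was lost without any single library of the 4, at adjusted p-values of 0.035 to 0.69. ADAM19 was at 0.60 in the same contrast (adjusted p = 0.086). Without pairing, neither STC1 nor ADAM19 was called for YAPi_TAZi against YAPi, against TAZi, or for YAPi against TAZi. TNFRSF6B had no adjusted p there. Of all genes, 4.82%, 6.77% and 1.96% were called. At an unadjusted p under 0.05 there were 0, 1 and 1 of them, and edgeR called 0 in each. STC1 in YAPi_TAZi against TAZi was at −0.52 (adjusted p = 0.011).

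In set 2, JUNB and STAT3 siRNAs can be read without the difference in library content. With JUNBi, STC1 was at 14.11 and 18.21 TPM against 8.6 and 6.87 TPM in Ctrli, and ADAM19 at 14.85 and 15.03 TPM against 7.75 and 9.38 TPM, with no overlap. TNFRSF6B was at 23.34 and 26.02 TPM against 33.16 and 33.38 TPM. The log2 fold changes were 0.77 ± 0.25 for STC1 (DESeq2 adjusted p = 0.03), 0.99 ± 0.29 for ADAM19 (0.014) and −0.73 ± 0.29 for TNFRSF6B (0.083). None passed the threshold of 0.01, where 3.99% of all genes did, although all 3 had an unadjusted p under 0.05 and edgeR called 0. JUNB fell in the same libraries (log2 fold change −2.04, adjusted p = 2.1e-08). The sum of TNFRSF6B and RTEL1-TNFRSF6B was at −0.11 in JUNBi (DESeq2 adjusted p = 0.85), a smaller fall than that of TNFRSF6B alone.

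With STAT3i in set 2, STC1 was at 10.68 and 11.33 TPM, ADAM19 at 7.27 and 8.0 TPM and TNFRSF6B at 14.36 and 23.09 TPM. The log2 fold changes were 0.36 for STC1 (adjusted p = 0.68), −0.03 for ADAM19 and −1.001 for TNFRSF6B. For the sum of TNFRSF6B and RTEL1-TNFRSF6B it was −0.39 (DESeq2 adjusted p = 0.62), again a smaller fall. ADAM19 and TNFRSF6B fell under the count level at which DESeq2 gave an adjusted p, and the unadjusted p of TNFRSF6B was 0.0024, the 1 of 3 genes under 0.05. None was called, 0.237% of all genes were, and edgeR called 0. ADAM19 was higher in JUNBi than in STAT3i (log2 fold change 1.02 ± 0.22, DESeq2 adjusted p = 0.00062, edgeR adjusted p = 0.0048), where 1.48% of all genes were called, and the call was lost without JUNBi replicate 2 or either STAT3i replicate (adjusted p = 0.12 to 0.47), while no adjusted p was given without JUNBi replicate 1. The mean transcript length of ADAM19, weighted by the estimated abundance of its isoforms, was 2038 to 3382 bases in set 2, 4838 to 6070 in set 1 and 4299 to 6481 in TAM.

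**Figure D5:**
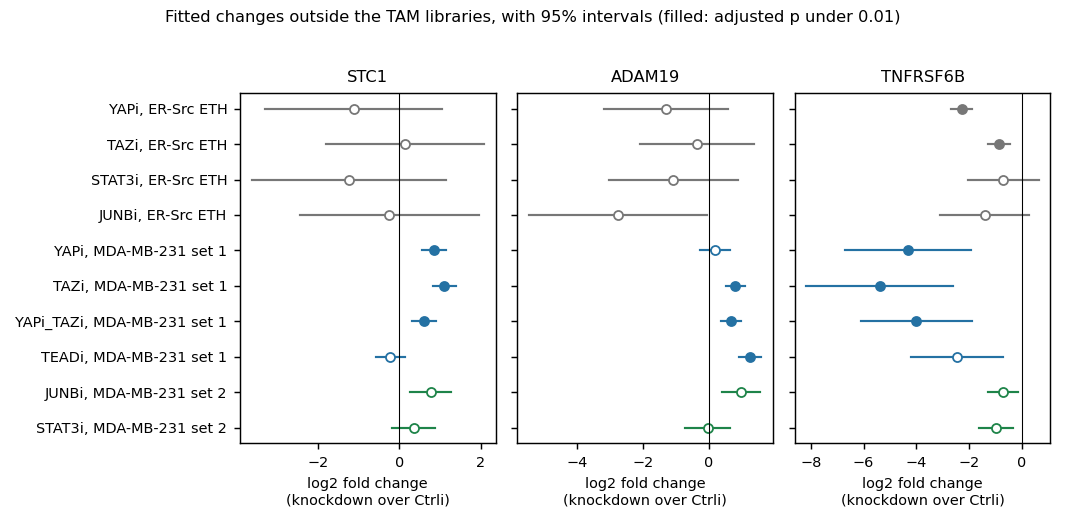
Log2 fold change against Ctrli with 95% intervals for STC1, ADAM19 and TNFRSF6B in ETH-treated ER-Src, MDA-MB-231 set 1 and set 2, the conditions that the selection did not use. CXCR1 is not drawn, and filled points mark an adjusted p under 0.01. TNFRSF6B in ETH YAPi was at −2.29, whereas STC1 and ADAM19 in set 2 JUNBi were at 0.77 and 0.99.

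Partners of the 4 proteins moved in both directions in ETH, where they were tested. In the CXCR1 list, which holds CXCR2 and 7 chemokines of the CXCL8 family, 2 of the 4 genes with an adjusted p rose in YAPi and 3 of 4 in TAZi, and none fell in either. Of all genes tested, 5.03% were called higher in ETH YAPi and 2.75% in ETH TAZi. CXCL8 rose by a log2 fold change of 1.68 in YAPi (DESeq2 adjusted p = 1.5e-13) and 0.84 in TAZi (0.0024), and CXCL1 by 1.16 in TAZi (7e-10). In TAM, as a description, CXCL8 was at 14.46 and 15.22 TPM in Ctrli, 36.48 and 30.16 TPM in YAPi and 7.2 and 5.02 TPM in JUNBi, so that it was higher in YAPi and lower in JUNBi while its receptor was lower in both. Of the 3 stanniocalcin partners tested, IGFBP4, an insulin-like growth factor binding protein that PAPPA cleaves, fell in YAPi (−1.72, adjusted p = 0.00013) and the paralogue STC2 rose (1.19, 1.1e-09), while PAPPA rose in TAZi (1.61, 1e-09). In the ADAM list, which holds ADAM19 relatives and the substrate NRG1, 1 of 7 fell and 1 rose in YAPi, where 6.36% of all genes were called lower and 5.03% higher. These were ADAM10 (−0.52, adjusted p = 0.0022) and ADAM12 (1.14, 0.004), and NRG1 rose in JUNBi (1.35, 0.0059), where 1.17% of all genes were called higher. At 1 of 7 genes, these counts are too small to be read apart from the background. None of the 7 ligands and receptors in the TNFRSF6B list was called against Ctrli in any ETH knockdown, with 4 to 6 of them tested.

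In set 1, 4 of the 8 genes of the CXCR1 list had an adjusted p, all of them chemokines, and against Ctrli 3 were called lower in YAPi and 4 in each of TAZi, YAPi_TAZi and TEADi. Of all genes, 11.9%, 16.6%, 18.2% and 14.4% were called lower in these comparisons, in which the library content differs too. On counts CXCL8 had log2 fold changes of −1.37 in YAPi, −1.46 in TAZi, −3.65 in YAPi_TAZi and −1.39 in TEADi. The deposited TPM gave larger differences. CXCL8 was at 6.06 and 8.39 TPM in YAPi_TAZi, 23.24 and 43.89 TPM in YAPi, 17.92 and 43.12 TPM in TAZi and 20.96 and 43.81 TPM in TEADi, against 214.2 and 232.2 TPM in Ctrli. Between knockdowns of like library content it was lower in YAPi_TAZi than in YAPi (log2 fold change −2.27, DESeq2 adjusted p = 2.2e-07), and CXCL1 was at −3.46 in the same contrast, where 3.41% of all genes were called lower. TNFSF15, a ligand of TNFRSF6B, was at 20.89 and 23.67 TPM in set 1 Ctrli and between 0.15 and 1.69 TPM in the knockdowns, and at 0.88 and 1.31 TPM in set 2 Ctrli.

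Among genes next to the 4 on the chromosome, CXCR2 and NIPAL4 had a like course in TAM, given here as a description. CXCR2 was at 0.15 and 0.19 TPM in ETH Ctrli, 2.33 and 1.71 TPM in TAM Ctrli, 0.25 and 0.05 TPM in STAT3i and 0.33 and 0.38 TPM in JUNBi. In YAPi it was at 0.89 and 0.29 TPM, and in TAZi at 2.0 and 1.03 TPM, which overlapped Ctrli. CXCR1 shares 125 of its 2410 stretches of 50 transcript bases with CXCR2, or 5.2%. NIPAL4, which encodes a magnesium transporter and lies within ADAM19 on the opposite strand, had log2 fold changes of −3.44 in STAT3i, −2.80 in JUNBi, −1.19 in YAPi and −0.47 in TAZi, and the sources do not say whether counting used strand.

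Over the 20 ER-Src libraries the genes most like each member on the log2(TPM + 1) scale were found among 10399 genes with a mean of at least 1 TPM. For STC1 they were FGL1 (Pearson's r = 0.974), GRAMD1B (0.970) and BATF3 (0.970), and for CXCR1 they were STC1 (0.948), BATF3 (0.922) and the lysosomal protease gene CTSB (0.917). For ADAM19 they were the histone demethylase gene KDM7A (0.940), GRB7 (0.925) and TMPRSS4 (0.923), and for TNFRSF6B they were CARHSP1 (0.958), ABTB3 (0.956) and MSRB1 (0.952). The order depends on the pseudocount for genes this low: with 0.1 in place of 1, KDM7A, GRB7 and TMPRSS4 took places 11, 13 and 8 for ADAM19 and BATF3 took place 15 for STC1, while the other named genes stayed within the first 3. The 6 pairs among the 4 genes had r between 0.849 and 0.948 over the 20 libraries, 0.868 to 0.961 within the 10 TAM libraries and 0.237 to 0.660 within the 10 ETH libraries. These are descriptions: the libraries share the TAM and ETH split, and the 4 genes were chosen for their levels in the TAM libraries.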

How the data were processed

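RNA-seq libraries were prepared by the authors with a TruSeq Ribo Profile kit, and reads were aligned with STAR to GENCODE v30 transcripts (up to 20 alignments kept per read) and quantified with RSEM on hg38. The authors deposited RSEM expected counts and TPM per gene for each of the 36 libraries. Whether counting used strand is not given in the sources used here.

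Expected counts were rounded and tested with DESeq2 1.42.0 (R 4.3.3) in a separate run per knockdown, with default size factors and independent filtering, as in the study's methods. A gene was called at a Benjamini-Hochberg adjusted p under 0.01 over all genes with one. Spike-in, numeric and other identifiers that name no gene, at most 0.109% of counts, were left out. edgeR 4.0.16 (quasi-likelihood), other size factors, filters, references and the replicate number as a block were alternatives, and the scripts were tested on simulated data. No 2 libraries held identical values. Levels between genes were compared as TPM, and correlations used log2(TPM + 1).

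The 4 genes, the partner lists and the tests were chosen with earlier results of these data known. Beside the 4 genes and the siRNA targets, the text names neighbouring genes, the 3 genes most alike in level, and up to 4 called genes per partner list in ETH or MDA-MB-231. In set 1, transcript length minus effective length differed between replicates 1 and 2 of the knockdowns (48.0 against 74.56 to 74.57 bases).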

Additional observations from a re-analysis of the deposited data

Results flagged for a closer look

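In 7 instances every library of a knockdown lay above its Ctrli libraries in normalized counts, while in TAM-treated ER-Src cells every library of the same knockdown lay below. These are STC1 with TAZ siRNA in ETH (log2 fold change 0.15), with YAP and TAZ siRNA in MDA-MB-231 set 1 (0.87 and 1.11) and with STAT3 and JUNB siRNA in set 2 (0.36 and 0.77), and ADAM19 with TAZ siRNA in set 1 (0.81) and JUNB siRNA in set 2 (0.99). The difference from TAM was not tested, since the genes were chosen on the TAM values. The share of all genes lying wholly above Ctrli was not counted, so the 7 instances cannot be read as particular to these genes. Of all genes tested, 12.2% were called higher in set 1 YAPi, 15.7% in set 1 TAZi and 2.75% in ETH TAZi. In set 2 these shares were 0.292% in JUNBi and 0% in STAT3i. For ETH the STC1 value rests on 21 and 23 counts, and for set 1 the TPM means moved the other way.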

How the results depend on the processing

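Over the alternatives, counts of called genes moved by over 1.5 times as follows, and the cause was not tested. With all groups in 1 fit, 2 genes were called in TAM TAZi (4 in the separate run), 0 in ETH TAZi (1), 1 in ETH JUNBi (0), 1 in set 1 YAPi (2), 2 in set 2 JUNBi (0) and 0 for ETH YAPi against TAZi (1). With edgeR the count was 0 in ETH TAZi, 2 in set 1 TEADi (1) and 0 for TEADi against YAPi_TAZi (1). With effective length offsets it was 0 in ETH TAZi, 1 in set 1 YAPi_TAZi (3), 0 for TEADi against YAPi_TAZi and 0 for set 2 JUNBi against STAT3i (1). With both sets of controls it was 1 in set 1 YAPi, TAZi (3) and YAPi_TAZi and 2 in TEADi, where a mean count filter and added readthrough counts also gave 2. With the other set 1 knockdowns as the reference it was 0 in YAPi, TAZi and YAPi_TAZi, with or without the block, and in TEADi the call passed from ADAM19 (0.69, adjusted p = 0.11; 0.17 with the block) to STC1 (−1.09, 1.1e-05; 6e-05).

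Replicate numbers gave the block. The correlation of same-numbered deviations was −0.0539 to 0.129 in TAM, 0.177 to 0.41 in ETH, −0.045 to −0.0294 in set 1 against Ctrli and 0.802 to 0.841 between set 1 knockdowns, with 2 pairs each, and no label says that a number marks a batch. The replicate block gave 1 called gene in ETH JUNBi (TNFRSF6B, −1.67, adjusted p = 1.5e-05), 1 in set 1 YAPi (TNFRSF6B lost, 0.011), 1 for YAPi_TAZi against TAZi (0; STC1, −0.53, 0.0061) and 1 for ETH STAT3i against JUNBi (0; TNFRSF6B, 0.84, 0.0068, with pairing correlations of 0.41 and 0.65 in these ETH contrasts), and no other count moved by over 1.5 times. No paired analysis was possible because of unshared numbers for set 2 knockdowns against Ctrli (replicates 1 and 2 against 3 and 4).

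Leaving out single libraries gave 2 to 4 called genes in TAM TAZi, 0 to 1 in ETH TAZi, STAT3i and JUNBi and for YAPi against TAZi, 0 to 1 in set 1 YAPi, 1 to 3 in TAZi and 0 to 2 in YAPi_TAZi, and 0 for TEADi against YAPi_TAZi and for set 2 JUNBi against STAT3i. Where 1 library was left, it was assumed to vary like the other group, and a gene without an adjusted p was not counted as called.

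Signs of log2 fold changes turned as follows. Against the other set 1 knockdowns, ADAM19 was −0.78 in YAPi (−0.78 with the block) and −0.16 in YAPi_TAZi (−0.15), STC1 was −0.083 in YAPi_TAZi (−0.086) and TNFRSF6B 2.10 in TEADi (1.80 with the block). With both sets of controls STC1 was 0.47 in TEADi. With readthrough counts added TNFRSF6B was −0.51 for YAPi_TAZi against YAPi, −0.53 against TAZi and −0.017 for YAPi against TAZi. ADAM19 was 0.093 for YAPi_TAZi against TAZi with effective length offsets, and CXCR1 was −0.038 for ETH YAPi against TAZi with all groups in 1 fit and −0.35 with the block. Single libraries also turned signs of low or near-0 values: the ranges were −0.70 to 0.063 for ADAM19 in ETH TAZi, −0.70 to 0.11 for STC1 in ETH JUNBi, −0.024 to 0.31 for ADAM19 in set 1 YAPi, −0.17 to 0.13 for ADAM19 in set 2 STAT3i, −3.46 to 2.70 for CXCR1 in ETH YAPi against TAZi and −0.085 to 1.94 for TNFRSF6B in ETH STAT3i against JUNBi. For TNFRSF6B in set 1 they were −2.34 to 2.91 for YAPi_TAZi against YAPi, −1.26 to 2.68 against TAZi, −1.24 to 2.09 for YAPi against TAZi and −0.61 to 4.34 for TEADi against YAPi_TAZi.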
